A study of Solanum lycopersicum and Solanum pimpinellifolium with 30 samples.

Results

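The galactosidase genes AGAL, TBG3, TBG4 and TBG6 were followed in red tomato fruit, in the ripe outer wall or pericarp. Their probe sets were taken by gene symbol from the platform annotation, which gave 4 probe sets, 1 for each gene, of 10209 on the array and 10038 tested after removal of controls. All 4 were found in the RefSeq gene table of tomato, AGAL as gene 778277, TBG3 as 543609, TBG4 as 543736 and TBG6 as 543612.

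The study compared fruit of 10 cultivars on 30 one-colour Affymetrix tomato arrays, 3 labelled biological replicates each. Of these, 9 are local Andean varieties of Solanum lycopersicum, here called landraces, with the accession numbers 3806, 3815, 3836, 3842, 549, 557, 560, 571 and 572. The remaining cultivar is LA1589, which belongs to the wild currant tomato Solanum pimpinellifolium. All plants stood in 1 field trial of 3 parcels with 6 plants each, 18 plants per accession. Fruit was picked red and firm over consecutive days, and skin, locule tissue and seeds were removed. The labels do not say which parcel a replicate came from, or how many fruits were pooled for it. The wild species stands on 1 accession, so a difference from the landraces is a difference of LA1589.

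Beta-galactosidases release galactose from the galactan side chains of pectin, and the loss of wall galactose is a known feature of softening tomato fruit. In tomato they are coded by the TBG family, of which TBG4 codes for an exo-galactanase that antisense work has linked to fruit softening. TBG6 is known from young fruit, and TBG3 is a further member expressed in fruit. Alpha-galactosidases such as AGAL act on another bond: they take terminal galactose from the raffinose sugars and from galactomannan, a wall polymer abundant in the seed endosperm.

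Levels are log2 signals after quantile normalisation between arrays. The logarithm base of the deposited values is not stated and was taken as 2. The background of an array was the percentile 95 of its 63 probe sets for foreign reporter sequences, and it ran from 0.37 to 1.34 on 29 arrays and reached 2.41 on replicate 1 of 557. Tests were made with limma over all 10038 probe sets, two-sided, with a Benjamini-Hochberg adjusted p threshold of 0.05. Ripe fruit markers were high in all cultivars (PG2, Psy1, E8, EXP1 and RIN, 5 of 9 listed, mean level 7.61 to 9.12). LA1589 had the lowest mean. E8 read 5.68 in LA1589 against 8.21 in the landraces (limma adjusted p = 0.000231), and RIN read 8.24 against 7.53 (limma adjusted p = 0.00795). PG2, Psy1 and EXP1 did not pass between LA1589 and the landraces. The mean of the 2 measured seed markers (TAS14 and MAN2 of 4 listed, 0.22 to 0.49) lay below the mean array background in 10 of 10 cultivars, and so did that of the 2 measured skin markers (LE16 and TSW12 of 4 listed, 0.15 to 1.15). The tissue is bulk, so fewer cells of a type and less RNA per cell cannot be told apart.

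A first question is how LA1589 differs from the cultivated fruit. AGAL was high in LA1589 and near background in the landraces, while none of the TBG members passed the test. In LA1589 the AGAL level was 4.38, 4.84 and 5.46 on replicates 1, 2 and 3. On the 27 landrace arrays it ran from -0.01 through a median of 0.30 to 1.18. The lowest LA1589 array therefore lay above the highest landrace array, and the groups did not overlap. The share of all probe sets without such overlap was not counted. All 3 LA1589 arrays were above their background, against 3 of 27 landrace arrays, which were single arrays of 3815, 549 and 572.

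The mean AGAL level was 4.89 ± 0.54 (SD, n = 3) in LA1589 and 0.35 as the mean of the 9 landraces. The log2 difference was 4.54 ± 0.19 (SE; limma adjusted p = 1.6e-14). With the landrace arrays raised to their background this was at least 17.2-fold. In this comparison 15.5% of probe sets passed, 8.58% as higher in LA1589. With the spread between cultivar means as the error AGAL still passed (limma adjusted p = 6.8e-07). For AGAL that spread comes mostly from landrace values below background, so it is not a measured variation between cultivars. Where the background was set at the maximum of the reporter probe sets, the bound fell to 6.27-fold.

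Among the 9 landraces no AGAL difference passed. Their means ran from 0.14 ± 0.21 in 3806 to 0.54 ± 0.55 in 572 (SD, n = 3 each), and 6 of 9 landraces had no array above background. The moderated F test of equal landrace means gave an adjusted p = 0.718, in a comparison in which 39.1% of probe sets passed. Of the 45 pairs of cultivars, the 9 pairs with LA1589 passed for AGAL and 0 of the 36 landrace pairs did. With median centring 11 pairs passed and with array weights 10, more than the 9 pairs that include LA1589, so these settings also called at least 1 pair of landraces each. Over all probe sets 12.9% of tests with LA1589 and 8.53% of tests between landraces passed. In the order of AGAL levels only the step from 572 to LA1589 passed among the 9 steps between neighbours (4.35 ± 0.26, limma adjusted p = 3.09e-11; 10.4% of probe sets passed in this pair), with 1 of 3 arrays of 572 above background. This order was made from the values that were then tested, so the steps are a description, here and for the other members. Values below background carry no order, so most AGAL differences among landraces were not measured on these arrays.

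**Figure D1:**
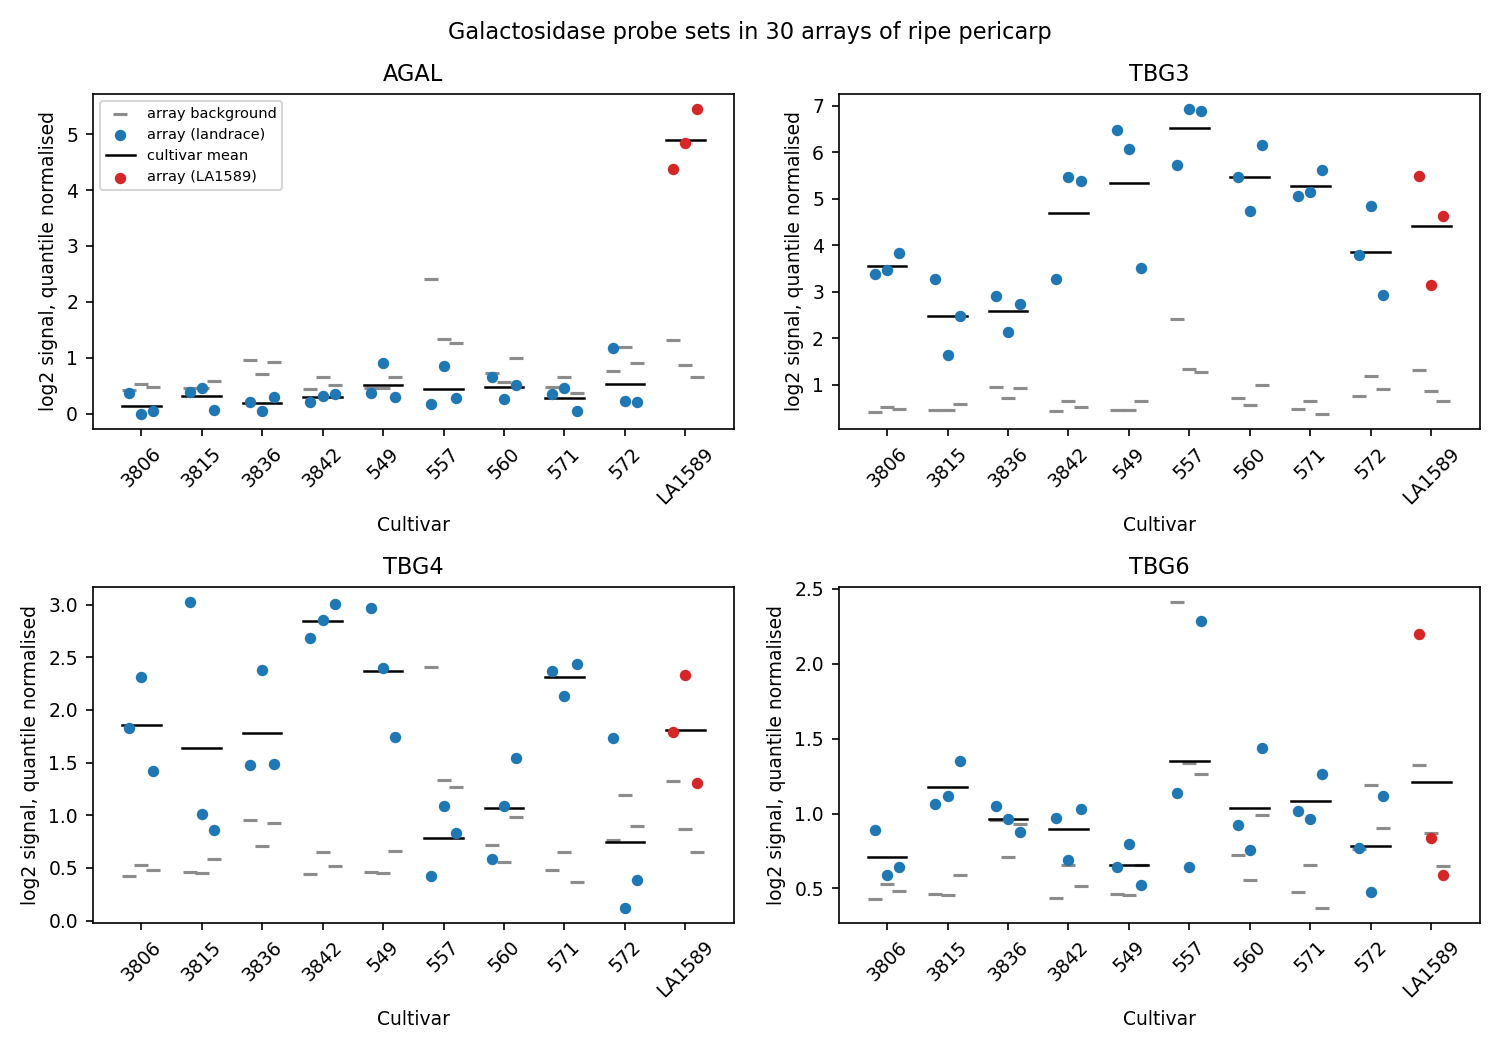
Levels of AGAL, TBG3, TBG4 and TBG6 (y axis, log2 signal, each panel with its own scale) on each array of the 10 cultivars (x axis), with the cultivar mean as a black line and the background of each array as a grey tick. For AGAL the 3 LA1589 arrays sit between 4.38 and 5.46 and the landrace arrays below 1.18, while for TBG3 all arrays lie above background.

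The TBG members did not pass between LA1589 and the landraces. For TBG3 the LA1589 arrays read 5.49, 3.15 and 4.64, and the landrace arrays ran from 1.65 through 4.75 to 6.93. The means were 4.43 ± 1.19 in LA1589 and 4.42 in the landraces, a log2 difference of 0.0047 ± 0.51 (limma adjusted p = 0.997). Its 95% interval ran from -1.07 to 1.08, so that a difference of up to about 1 log2 unit either way was not resolved.

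For TBG4 the LA1589 arrays read 1.79, 2.33 and 1.30, within the landrace range of 0.12 to 3.02. The log2 difference was 0.10 ± 0.35 (limma adjusted p = 0.899; interval from -0.62 to 0.82). For TBG6 they read 2.20, 0.84 and 0.59, against 0.47 to 2.28 in the landraces. The log2 difference of TBG6 was 0.25 ± 0.25 (limma adjusted p = 0.586; interval from -0.27 to 0.76), and 1 of 3 LA1589 arrays was above background. The groups overlapped for all 3 genes.

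The other beta-galactosidases on the array were TBG1, TBG2, TBG5 and TBG7, and 0 of 4 passed in LA1589. TBG7 is the member of the family nearest to AGAL on the same chromosome of the reference assembly SLM_r2.1, with 9 annotated genes between them. Its level was 0.81 ± 0.86 in LA1589 and 0.85 in the landraces (limma adjusted p = 0.961), and 1 of 3 LA1589 arrays and 11 of 27 landrace arrays were above background. TBG3 lies on that chromosome too, 1083 genes from AGAL. TBG4 and TBG1 share another chromosome, with 1490 genes between them.

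Among 44 further genes of the wall and of galactose routes, LA1589 was higher in 3 and lower in 5, and 36 missed the threshold. Over all probe sets 6.96% passed as lower. Their median difference was -0.01 and that of all probe sets was -0.00057. The cellulase gene Cel2 was higher by 1.77 ± 0.59 (limma adjusted p = 0.0451) and BR1, a xyloglucan transferase homologue, by 1.53 ± 0.42 (limma adjusted p = 0.0139). Both lay within the range of landrace means: Cel2 was 8.52 in LA1589 and 8.83 in 557, and BR1 was 2.60 in LA1589 and 3.49 in 3815. The lowest changes were those of the pectin methylesterase genes PME2.1 and PE1. PME2.1 read 0.45 ± 0.16 in LA1589, with 0 of 3 arrays above background, against 5.53 in the landraces, and was at least 23.9-fold lower (limma adjusted p = 6.56e-10). PE1 was lower by 3.27 ± 0.27 on the log2 scale, at 4.82 in LA1589 against 8.09 in the landraces (limma adjusted p = 3.5e-09). How well the probes of these genes match LA1589, which is another species, was not tested. Man4, an endo-beta-mannanase that cuts the backbone of mannans, read 1.04 ± 0.50 in LA1589 against 3.85 in the landraces. The log2 difference was -2.81 ± 0.71 (limma adjusted p = 0.00813), with 2 of 3 LA1589 arrays above background. LA1589 lay within the range of landrace means for Man4, which ran from 0.53 in 3815 to 6.53 in 560. GolS-1, a galactinol synthase of the raffinose route, read 0.96 ± 0.44 in LA1589 against 0.49 (limma adjusted p = 0.0847).

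**Figure D2:**
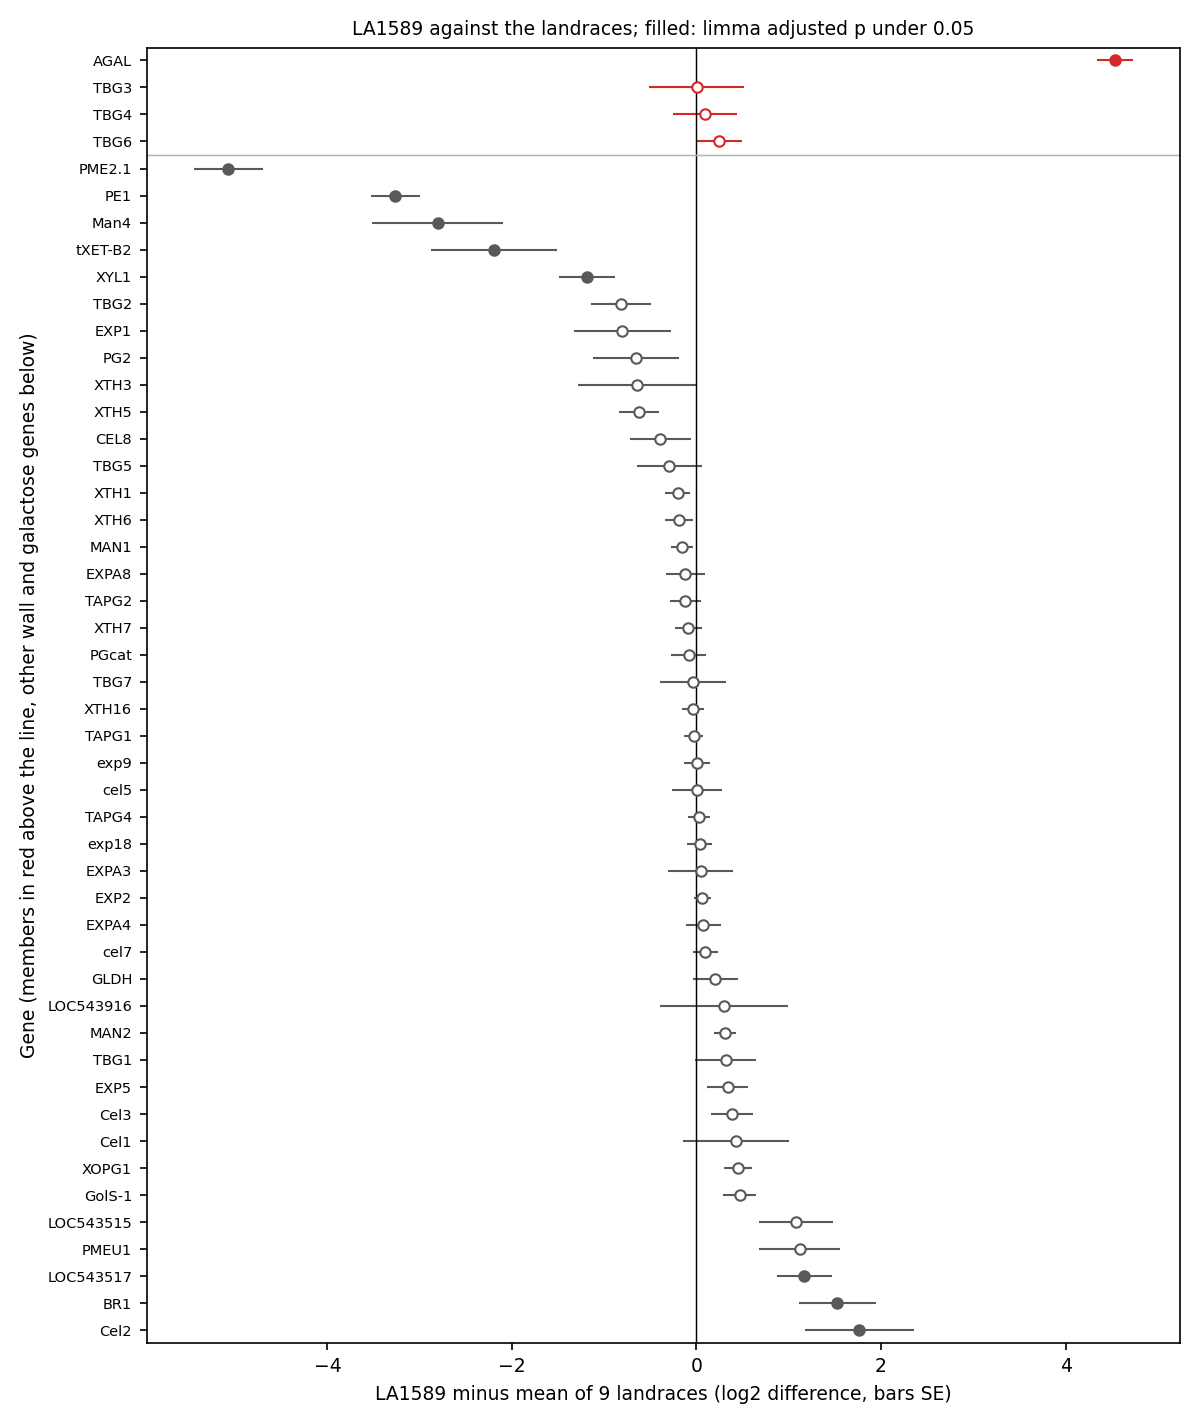
Log2 difference of LA1589 from the mean of the 9 landraces (x axis, bars SE) for the 4 members, in red, and for 44 other genes of the wall and of galactose routes (y axis), filled where the limma adjusted p was under 0.05. AGAL stands at 4.54, to the right of all other genes drawn, and the 3 TBG members have open points at 0.25 or less.

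A second question is where the landraces differ from each other. TBG3 and TBG4 differed among them, and AGAL and TBG6 did not pass. TBG3 was the member with the widest range of landrace means, 4.04 on the log2 scale or 16.5-fold, from 2.47 ± 0.82 in 3815 to 6.52 ± 0.68 in 557 (SD, n = 3 each; limma F test adjusted p = 0.000384). This range was wider than that of 99.2% of probe sets. All 27 landrace arrays lay above background for TBG3.

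On the arrays of 557 TBG3 read 5.73, 6.93 and 6.89. On those of 560 it read 5.47, 4.75 and 6.15, on those of 571 5.06, 5.14 and 5.61, and on those of 549 6.47, 6.06 and 3.51. These 4 landraces were the highest, and within them replicate 3 of 549 stood low. The arrays of 3842 read 3.27, 5.46 and 5.38. The lower landraces were 572 with 3.79, 4.84 and 2.93, 3806 with 3.39, 3.46 and 3.83, 3836 with 2.90, 2.14 and 2.75, and 3815 with 3.28, 1.65 and 2.49. The 3 arrays of 557 lay above all arrays of 3806, 3815, 3836 and 572. As the highest and the lowest landraces were picked by the same values, this separation is a description. Its share over all probe sets was not counted.

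Set against the mean of the other 8 landraces, TBG3 was higher in 557 by 2.36 ± 0.50 (SE; limma adjusted p = 0.00209), in a contrast in which 12.3% of probe sets passed as higher. With array weights the difference was 2.47 with an adjusted p of 0.0841. TBG3 was lower in 3815, by -2.19 ± 0.50 (limma adjusted p = 0.00788), and in 3836, by -2.05 ± 0.50 (limma adjusted p = 0.0255), where 3.72% and 1.74% of probe sets passed as lower. Without replicate 2 of 3815 its difference was -1.78 (limma adjusted p = 0.129) and without replicate 3 it was -2.20 (0.0703). Without replicate 1, 2 or 3 of 3836 its difference was -2.20, -1.82 or -2.13 (limma adjusted p = 0.0793, 0.162 and 0.0776).

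Of the 36 landrace pairs 10 passed for TBG3, against 8.53% of such tests over all probe sets. Of the 9 pairs with LA1589 that with 557 passed (2.09 ± 0.69 higher in 557, limma adjusted p = 0.0418, where 14.9% of probe sets passed). The landraces 3815 and 3836 each differed from 549, 557, 560 and 571, and 557 also differed from 3806 and 572. Of all 36 contrasts of a member in 1 landrace with the other 8, 5 passed, against 8.91% over all probe sets. The full order of TBG3 levels from the bottom was 3815, 3836, 3806, 572, LA1589, 3842, 571, 549, 560 and 557. None of the 9 steps between neighbours in this order, which was made from the same values, passed (0 of 9 in limma, lowest unadjusted p = 0.138). Without replicate 3 of 549, 18 of the 45 pairs passed in place of 11.

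TBG4 had a mean level of 1.72 over the 30 arrays, 24 of which were above background, and over the landraces its means ranged from 0.75 ± 0.86 in 572 to 2.85 ± 0.16 in 3842. The range was 2.097 on the log2 scale (limma F test adjusted p = 0.00657). As 2 of 3 arrays of 572 lay at background, 3842 was at least 2.97-fold above 572. With values below background raised to it, the limma F test adjusted p of the range was 0.0164. In that fit the unequal array backgrounds themselves make a range, and 8179 probe sets passed against 3921. Its pass is therefore no check of the TBG4 range. The arrays of 3842 read 2.68, 2.85 and 3.005, those of 549 2.97, 2.40 and 1.74, and those of 571 2.37, 2.14 and 2.43. All 9 of these arrays were above background, as were all 9 of 3806, 3815 and 3836.

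The lowest TBG4 levels were those of 572 (1.73, 0.12 and 0.39), 557 (0.43, 1.08 and 0.83) and 560 (0.58, 1.09 and 1.54). On the arrays of 557 TBG4 was at background in 3 of 3, on those of 572 in 2 of 3 and on those of 560 in 1 of 3. The arrays of 3815 disagreed most, with 3.02 on replicate 1 and 1.01 and 0.87 on the others. The arrays of 3842 lay above all arrays of 557, 560 and 572. These landraces are the highest and the lowest by the same values, so this separation is a description. How many of all probe sets separate in this way was not counted.

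Against the other 8 landraces TBG4 was lower in 557, by -1.05 ± 0.35 (limma adjusted p = 0.035; 11.1% of probe sets passed as lower), and in 572, by -1.08 ± 0.35 (limma adjusted p = 0.0421; 6.62% passed as lower). Both rested on values at background: raised to it, the differences were -0.23 and -0.67 (limma adjusted p = 0.557 and 0.203). Both also lost the threshold with single arrays left out, 557 without its replicate 1 or 3 (limma adjusted p = 0.183 and 0.0762) and 572 without its replicate 2 or 3 (0.268 and 0.195). That of 572 was also between 0.0503 and 0.0542 without replicate 1 of 549, 2 or 3 of 560, 1 or 3 of 571, or 2 or 3 of 3842. With array weights the limma adjusted p was 0.373 for 557 and 0.0532 for 572, and with median centring it was 0.0581 for 557. The highest landrace, 3842, did not pass (1.28 ± 0.35, limma adjusted p = 0.156), in a contrast in which 0.159% of all probe sets passed in either direction.

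Of the 36 landrace pairs 7 passed for TBG4, against 8.53% of such tests over all probe sets. Of the 9 pairs with LA1589 0 passed, against 12.9%. In the landrace pairs that passed, 3842 was above 557, 560 and 572, and 549 and 571 were each above 557 and 572. The lower landrace of each had at least 1 array at background for TBG4. Pairs were not tested with values raised to background. From the bottom the order of TBG4 levels was 572, 557, 560, 3815, 3836, LA1589, 3806, 571, 549 and 3842, and 0 of its 9 steps between neighbours passed in limma (lowest unadjusted p = 0.237). Without replicate 1 of 3815, 12 pairs passed, as with array weights.

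**Figure D3:**
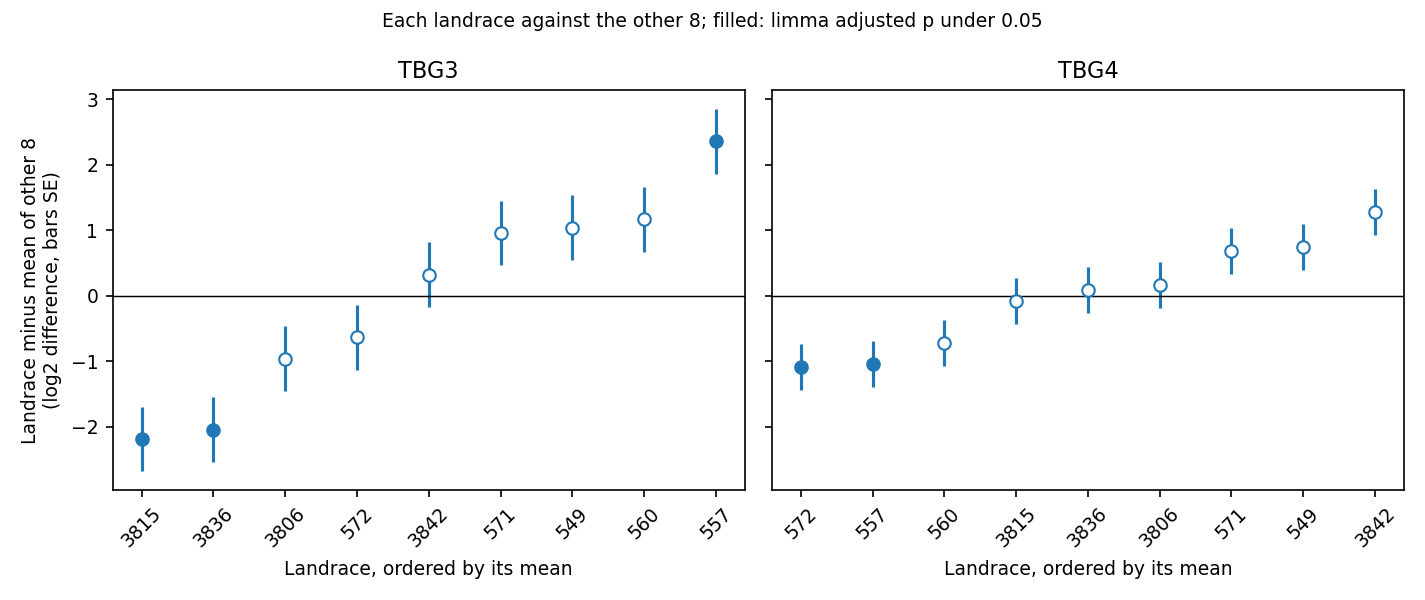
Difference of each landrace from the mean of the other 8 (y axis, log2, bars SE) for TBG3 and TBG4, with the landraces ordered by their mean (x axis) and filled points where the limma adjusted p was under 0.05. Landrace 557 is at the top for TBG3, at 2.36, and among the lowest for TBG4, at -1.05.

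Over the landraces the spiked control signal tended to be higher where the TBG4 level was lower. The mean of the 16 spiked control probe sets was highest in 557 (10.06 ± 0.29) and 572 (9.95 ± 0.24), the landraces lowest in TBG4, and lowest in 571 (7.75 ± 0.21) and 3842 (7.93 ± 0.35). Over the 9 landrace means, which come from the same arrays, Pearson's r with TBG4 was -0.78 and with TBG3 -0.037. For TBG4 r was -0.71 with the array background and 0.76 with the percent of probe sets above background. For TBG3 these were 0.43 and -0.33. With the spiked controls as a covariate the F test of TBG4 no longer passed (limma adjusted p = 0.196). The spiked signal itself differed between landraces, so this fit cannot tell spiked signal and landrace apart. Without 557 and 572 the F test did not pass either (limma adjusted p = 0.0673). As these landraces were lowest in TBG4, leaving them out narrows the range by itself. TBG3 passed in both fits (limma adjusted p = 0.00075 and 0.00325).

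TBG4 was also higher where the mean of the ripe fruit markers was higher. The mean of these 5 genes was lowest in 560 (7.71) and highest in 3842 (9.12), and r with TBG4 was 0.83 over the 9 landraces. Of the 5 genes, Psy1 read 5.36 in 560, its lowest landrace mean, against 8.80 as the mean of the landraces. For TBG3 r with these markers was 0.18, and r with 3 of 6 listed photosynthesis genes (PSBR, PSBO and PETE) was 0.74. The mean of these 3 genes was lowest in 3815 (4.70) and highest in 560 (8.15), with 6.67 in 557. Their part in the TBG3 and TBG4 differences was not tested.

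**Figure D4:**
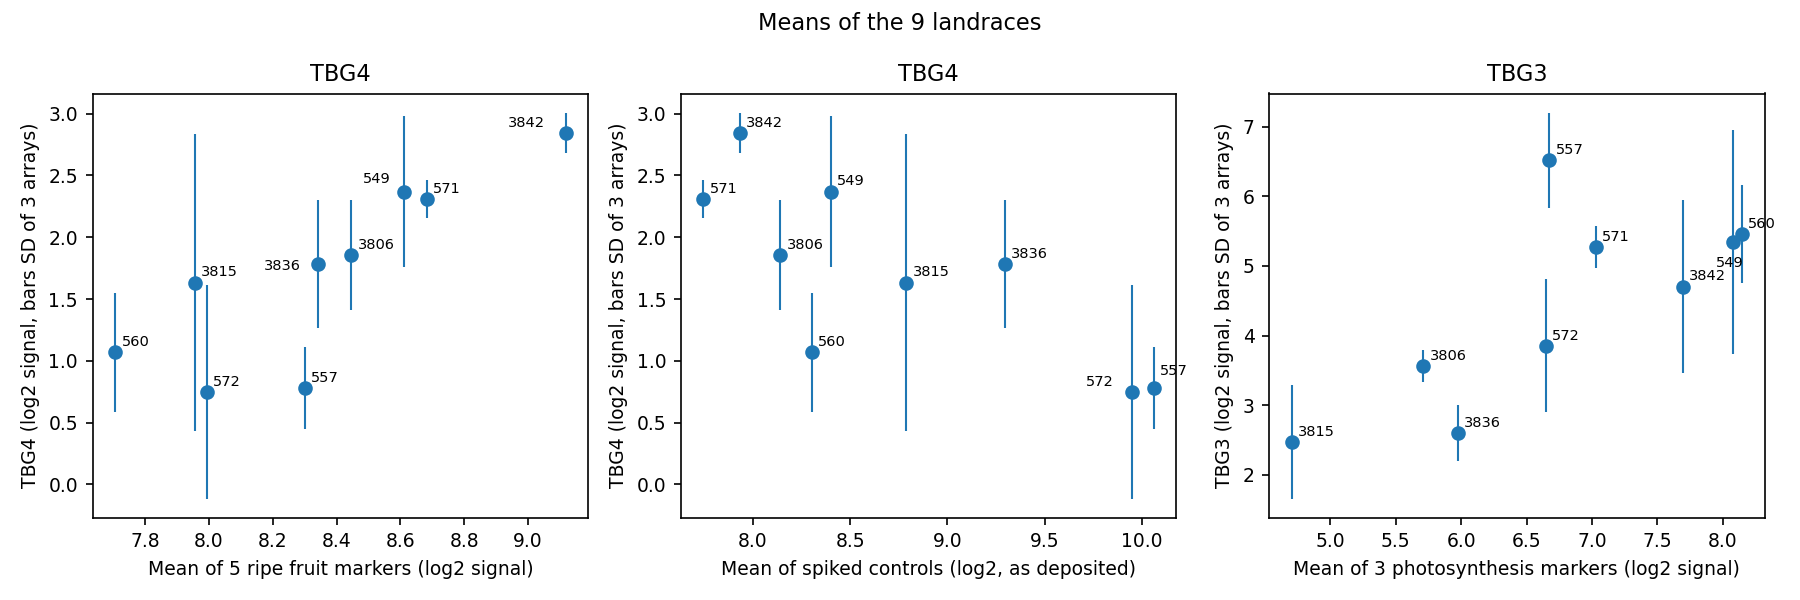
Means of the 9 landraces for TBG4 (y axis, log2 signal, bars SD of 3 arrays) against the mean of 5 ripe fruit markers and against the mean of the spiked controls, and for TBG3 against the mean of 3 photosynthesis genes (x axes, log2). In the middle panel 557 and 572 lie apart at 10.06 and 9.95, with the lowest TBG4 levels.

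TBG6 had low levels throughout, from 0.47 to 2.28 over the 30 arrays. Its landrace arrays ran from 0.47 through 0.96 to 2.28, with 22 of 27 above background, and the landraces had means from 0.65 ± 0.14 in 549 to 1.35 ± 0.84 in 557 (limma F test adjusted p = 0.377). The high mean of 557 came with 1 array at 2.28 and others at 1.14 and 0.64, and the high array of LA1589, at 2.20, stood against 0.84 and 0.59. For TBG6 0 of the 45 pairs passed in limma, against 9.4% over all probe sets. Its order from the bottom was 549, 3806, 572, 3842, 3836, 560, 571, 3815, LA1589 and 557, and the lowest unadjusted limma p of a step between neighbours was 0.666. Without replicate 2 of 557, 2 pairs passed, as with median centring. With median centring in place of quantile normalisation its F test passed (range 0.86, limma adjusted p = 0.0427).

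Over the landraces, 2 of the 4 members passed the F test, against 39.1% of all probe sets. Of the 44 other wall and galactose genes 17 passed, with Man4 and tXET-B2 having the largest ranges among those that passed. Man4 ran from 0.53 in 3815 to 6.53 in 560, at least 51.4-fold with 2 of 3 arrays of 3815 at background (limma F test adjusted p = 0.000692). The xyloglucan transferase gene tXET-B2 ran from 1.44 in 557 to 6.74 in 3806, at least 30.8-fold (limma F test adjusted p = 0.00293). Of the other beta-galactosidases TBG7 passed, from 0.25 in 549 to 2.61 in 3815 (limma F test adjusted p = 0.00443), and TBG1, TBG2 and TBG5 did not.

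No pair of members passed a test of joint variation over the landraces. Among the 6 pairs of members, tested over 9 landrace means with exact two-sided permutation tests, 0 passed for Pearson's r (lowest unadjusted p = 0.133) or for Spearman's rho (lowest unadjusted p = 0.23). For TBG3 and TBG4 r was -0.090 (exact permutation p = 0.812, adjusted p = 0.975) and rho was -0.067 (exact permutation p = 0.88, adjusted p = 0.88). Without 3815 and 3836, the landraces farthest from the TBG3 median, that r was -0.15. For AGAL and TBG3 r was 0.54 (exact permutation p = 0.133, adjusted p = 0.628) and rho was 0.45 (exact permutation p = 0.23, adjusted p = 0.582), with most AGAL values at background. Without 549 and 572 that r was 0.71. The other 4 pairs had r between -0.44 and 0.24, and with their 2 farthest landraces left out r was -0.57 for AGAL and TBG4, 0.71 for AGAL and TBG6, 0.76 for TBG3 and TBG6 and -0.67 for TBG4 and TBG6.

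The genes whose pattern was most like each member were sought among 394 named probe sets. Each had a highest cultivar mean above the mean array background and a range of cultivar means of at least 1. Over the 10 cultivar means the AGAL pattern was most like those of the chitinase gene CHI14 (r = 0.97), the subtilase gene P69A (0.96) and CTR1, a kinase of ethylene signalling (0.95). As AGAL was near background in the landraces, these values rest mainly on LA1589. P69A read 1.08 in LA1589 and 0.06 to 0.32 over the landrace means, and CTR1 3.23 against 1.85 to 2.37. Both met the range condition only through LA1589, and P69A the background condition too. Over the 9 landraces alone, with most AGAL values at background, CTR1 (0.84), CHI14 (0.80) and the kinase gene PPCK2 (0.80) came first. Most like TBG3 were DXR of plastid isoprenoid synthesis (0.88), the dehydroquinate synthase gene DHQS (0.86) and the cystathionine gamma-synthase gene CGS (0.85). Over the 9 landraces alone, DXR (0.88), Man4 (0.87) and DHQS (0.86) came first for TBG3. DXR and DHQS were, like TBG3, highest in 557 and lowest in 3815.

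Most like TBG4 over the 10 cultivars were PTPKIS1 (r = 0.89), the phytoene desaturase gene PDS (0.85) and DDTFR8 (0.80), and over the 9 landraces PDS (0.90), PTPKIS1 (0.89) and the S-adenosylhomocysteine hydrolase gene SAHH (0.84). TBG6 was most like hqt of chlorogenic acid synthesis (0.78), the cryptochrome gene CRY1A (0.74) and PT1 (0.73) over the 10 cultivars. All of these are highest values picked from many over few points that share arrays, and they are given as a description.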

How the data were processed

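Labelled cRNA of ripe pericarp was hybridised to 30 arrays, per the labels' protocols. The authors deposited 1 log2 signal per array for each of 10209 probe sets. How they corrected background and normalised is not given in the sources used here. Base 2 was assumed: the spiked controls stepped by a median slope of 0.893 per log2 unit of their standard amounts (0.494 to 1.11). Array medians differed by 0.50, so values were quantile normalised. The 171 control probe sets were then left out.

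Fits used limma 3.58.1 (statmod 1.5.0, R 4.3.3) with 1 mean per cultivar, on 30 arrays (20 residual degrees of freedom) for LA1589 and for pairs, and on 27 arrays (18) among landraces. LA1589 was set against the equally weighted mean of the 9 landraces. Intervals use 20 degrees of freedom. Bounds raise the lower side to its array background. Correlations used Python 3.11.15 with scipy 1.17.1, and figures matplotlib 3.10.9.

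Members, lists and tests were chosen with earlier results of these data known. All probe sets of the members were named. Of the other list genes the 2 highest and 2 lowest LA1589 changes and the 2 largest ranges past the threshold were named, and the 3 most alike genes per member. Man4 in LA1589, GolS-1 and the other TBG genes were picked beyond this rule after their values were seen. Symbols came from the 2007 platform annotation, which named 909 tested probe sets. Each member was read on 1 probe set, so no second probe set could check it, and its probe sequences were not used here. Mismatches of probes with LA1589 were not tested, for the members or for the other genes. In simulated data at these means and spreads (10038 probe sets), the LA1589 fit recovered 99% of changes of 2 log2 units and the F test 91%.

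Precision is limited by the number of arrays. Labels give no batch or scan date. Nothing says that replicates came from separate extractions of separate parcels, so p-values measure the spread between these samples. Alternatives were the values as deposited, median centring, a filter on dim probe sets, array weights, a robust prior with an intensity trend, a replicate block, spiked controls as a covariate, each array or landrace left out, and other error terms for LA1589. Values raised to background, the removal of 557 with 572, and single arrays left out of landrace and pair contrasts were added after seeing the data.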

Additional observations from a re-analysis of the deposited data

How the results depend on the processing

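AGAL passed in LA1589 in every alternative run (log2 difference 4.10 to 4.79, largest adjusted p = 6.8e-07), and TBG3 passed among the landraces in every one (range 2.98 to 4.45). The range of TBG4 lost the threshold with spiked controls as a covariate (1.66) and without 557 and 572 (1.77) and passed in the other alternatives run. The cause was not tested. TBG6 passed with median centring (0.86) and, as did AGAL (1.31 and 1.19), with values raised to background, where the unequal array backgrounds themselves make a range. That fit called 8179 probe sets and median centring 6252, against 3921. In LA1589 888 to 1774 probe sets passed with 1 array left out, lowest without replicate 1 of LA1589, 111 with 1 mean per cultivar and 228 with cultivar as a random effect, against 1560. With array weights 9 member contrasts against the other 8 landraces passed in place of 5. The AGAL bound was 6.27-fold with the background at the reporter maximum. The uncalled LA1589 differences changed sign. That of TBG3 was -0.20 with array weights, -0.26 with spiked controls, -0.10, -0.24, -0.22 and -0.066 without landraces 3806, 3815, 3836 and 572, and -0.53 to 0.64 with 1 array left out. That of TBG4 was -0.037 as deposited, -0.020 and -0.024 without 557 or 572, -0.17 without both, -0.066 raised to background, and -0.16 to 0.35 with 1 array left out. That of TBG6 was -0.017 with array weights and -0.25 to 0.56 with 1 array left out. Of the uncalled correlations, TBG3 with TBG4 was 0.011 as deposited and 0.24 without 557 and 572, where AGAL with TBG6 was -0.059 and TBG3 with TBG6 -0.25. AGAL was too dim for the filter on dim probe sets among the landraces and has no value there. Same-numbered replicates of different cultivars showed no shared deviation at the median (135 correlations, median -0.0060, 22 over 0.1, highest 0.36). Of 30 arrays, 7 deviated most like their own number. As the labels do not give the parcel of a replicate, this does not settle whether same-numbered replicates shared a parcel. With the replicate block AGAL differed by 4.54 (adjusted p = 3.51e-13), TBG3 had a range of 4.04 (0.00101) and TBG4 of 2.097 (0.00873). With it 10 TBG3 pairs passed in place of 11, the other members had as many pairs as before, and no other member call changed. Signal near background limits AGAL and TBG6 among the landraces and TBG4 in 557 and 572.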
